A study of Mus musculus with 8 samples.

Results

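The 8 genes described here encode transcription factors that set up and hold the hepatocyte programme in the liver: the forkhead factors Foxa1, Foxa2 and Foxa3, the leucine zipper factor Cebpa, the cut-homeodomain factors Onecut1 and Onecut2, the homeodomain factor Prox1 and the zinc finger factor Gata4. They were chosen by symbol, as the rows of the deposited count table whose Ensembl gene ID maps to these names, and all 8 were found among 56748 gene IDs. The series is bulk RNA sequencing of mouse liver in which the genotype label reads miR-93 knockout for 4 libraries and wild type for the other 4. Every liver is labelled MASLD, for metabolic dysfunction-associated steatotic liver disease, on a diet high in fat and in fructose, with a time of 16 weeks, so the controls carry the diet as well and no chow-fed liver is among the groups. The labels name neither the way the knockout was made, the cells it affects, the strain, the age nor whether each library is a separate animal, so p-values here measure the spread between libraries. The question asked of these genes is whether their transcript levels differ in the livers without miR-93.

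FOXA proteins are called pioneer factors because they bind DNA wrapped in nucleosomes and open it for other factors, and FOXA1 and FOXA2 together start liver development while FOXA3 comes to prevail in the adult liver. CEBPA drives genes of gluconeogenesis, the urea cycle and energy storage, ONECUT1 (HNF6) and ONECUT2 act on glucose metabolism and bile duct formation, PROX1 sustains hepatocyte identity and also marks lymphatic endothelium, and GATA4 acts in the early liver and in sinusoidal endothelial cells. MicroRNAs such as miR-93 lower target transcripts by pairing their seed, bases 2 to 8, with matching letters that lie mostly in 3′ untranslated regions (UTRs).

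The microRNA named in the knockout label is shown first, beside the mouse microRNAs that share its seed, since a family with 1 seed shares its predicted sites. RefSeq lists miR-93-5p on GRCm38.p6 at chr5:138165574-138165596 on the minus strand, and 7 mature mouse microRNAs in that table carry the same seed, here in capitals.
miR-93-5p: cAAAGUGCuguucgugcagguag
miR-106b-5p: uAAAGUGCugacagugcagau
miR-17-5p: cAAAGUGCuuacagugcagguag
miR-20a-5p: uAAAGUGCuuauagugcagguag
miR-20b-5p: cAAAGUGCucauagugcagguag
miR-106a-5p: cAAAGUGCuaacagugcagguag
miR-6383: uAAAGUGCugugucacggaca
The letters that pair with this seed, GCACTTT, were searched in the longest GENCODE M21 3′ UTR of each factor. Foxa1 held 1 match, at position 1104 of a 3′ UTR of 1398 bases (GRCm38), printed here with its neighbours and the match in capitals.
Foxa1 site: tccagtgttaatGCACTTTccacagttgga
No match was found in the 3′ UTRs of Foxa2 (637 bases), Foxa3 (854), Cebpa (1555), Onecut1 (2183), Onecut2 (14356), Prox1 (5185) or Gata4 (1453). Among all tested genes with a 3′ UTR, 1744 of 11598, or 15.0%, hold these letters, so 1 of 8 is near the background. A match is a description of the letters and not a site shown to be bound. All 8 libraries had 0 counts of Mir93, a gene whose mature RNA is too short for libraries made for messenger RNA, so the knockout label could not be checked on its own gene. Sirt1, the deacetylase that the series title gives as the target of miR-93, did not pass edgeR's test (log2 fold change -0.34 ± 0.21, adjusted p = 0.268).

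The libraries differed in depth and in mitochondrial RNA along with the genotype. Knockout libraries held 9187279 to 10966019 counts and wild-type libraries 5085860 to 7451026, and transcripts of the mitochondrial genome took 8.08% to 15.03% in the knockout against 25.42% to 77.75% in the wild type. The highest share belonged to wild-type replicate 4, which had 1131446 counts outside the mitochondrial genome and counts for 14287 genes, while the other 7 libraries had counts for 18412 to 20148. After TMM scaling, 1 count was worth 0.562 CPM, the count set against the library's scaled total, in that library and 0.0731 to 0.152 CPM in the others, so its low genes are the least precise. The results of the 8 factors are therefore given with and without it. Log2 fold changes of other genes are from all 8 libraries unless stated. The mitochondrial share moves with genotype and so with every genotype difference here, and its part in them was not tested.

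With edgeR's quasi-likelihood test across 13204 genes and a Benjamini-Hochberg adjusted p under 0.05, 4 of the 8 factors changed: Prox1 rose, and Onecut1, Onecut2 and Gata4 fell in the knockout. Foxa1, Foxa2, Foxa3 and Cebpa did not pass. Of all tested genes 2777 were called, a background of 21.0%, with 10.4% higher (1369 genes) and 10.7% lower (1408 genes). Scaled by library size alone, which moves the median log2 fold change of all genes from -0.01 to 0.54, the calls were 561 higher and 124 lower and no factor passed. The knockout and wild-type CPM values did not overlap for 5 of the 8 factors (Foxa1, Onecut1, Onecut2, Prox1 and Gata4), against 30.3% of all tested genes. The median log2 fold change was -0.08 over the 8 factors. Without wild-type replicate 4, 6 of the 8 passed, Foxa1 and Cebpa being added, against a background of 35.2% (4853 of 13777 genes). Without knockout replicate 2, 1 factor passed, and without knockout replicate 3 or 4, 2 passed. The calls over all genes fell in these fits as well, to 1494 of 13182, 1722 of 13194 and 1489 of 13179 genes. In bulk liver RNA, fewer cells that express a factor and less of its RNA per cell cannot be told apart.

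**Figure D1:**
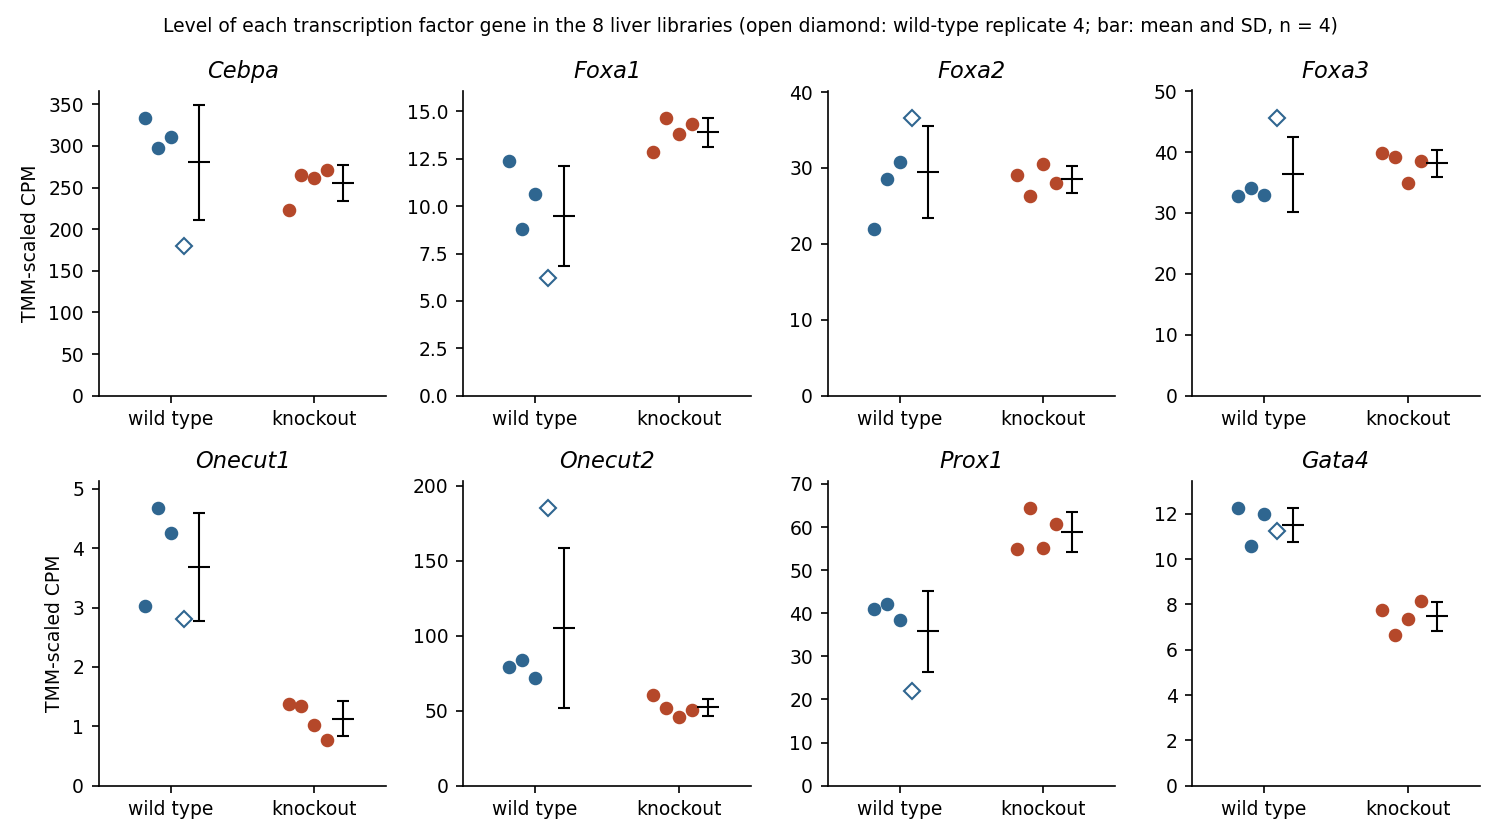
TMM-scaled CPM (vertical axis, from 0, a separate scale for each gene) of the 8 factors in the 4 wild-type and 4 knockout libraries; points are libraries, bars are the mean and SD (n = 4), and the open diamond is wild-type replicate 4. Prox1 lay higher and Onecut1, Onecut2 and Gata4 lower in every knockout library, while the open diamond was the highest wild-type point for Foxa2, Foxa3 and Onecut2 and the lowest for Foxa1, Cebpa, Onecut1 and Prox1.

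Onecut1 (ENSMUSG00000043013), also known as HNF6, is the founding member of the ONECUT factors and acts in bile duct and pancreas formation as well as in hepatocytes. Wild-type replicates 1 to 4 had 3.03, 4.67, 4.25 and 2.81 CPM, and knockout replicates 1 to 4 had 1.38, 1.35, 1.02 and 0.761 CPM. Every knockout library lay below every wild-type library. Onecut1 fell by 1.74 ± 0.34 on the log2 scale (SE, 95% interval -2.48 to -1.0, edgeR adjusted p = 0.00462), from 3.69 ± 0.910 CPM to 1.13 ± 0.294 CPM (SD, n = 4). The raw counts were few, 10 to 17 in the knockout libraries and 5 to 34 in the wild type, the 5 being from wild-type replicate 4. Without that library the log2 fold change was -1.80 ± 0.34 (adjusted p = 0.000238), and the call stood with each of the 8 libraries left out in turn. In GENCODE M21 the exons of Onecut1 share 2171 bases, 52.8% of their length, with the long noncoding RNA Gm20649 on the same strand, which had 0 counts in all 8 libraries. The sources used here do not give how reads that match both genes were counted, so the counts of Onecut1 may miss such reads.

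Onecut2 (ENSMUSG00000045991), its relative with overlapping roles in the liver and bile ducts, had more CPM per kilobase of exon than Onecut1 in every library. Wild-type replicates 1 to 4 had 79.5, 84.0, 72.1 and 185 CPM, and the knockout replicates had 60.2, 51.8, 46.0 and 50.7 CPM. All 4 knockout libraries lay below the wild type, and wild-type replicate 4 stood far above its group. Onecut2 fell by 0.98 ± 0.27 on the log2 scale (edgeR adjusted p = 0.0259), from 105 ± 53.5 CPM to 52.2 ± 5.89 CPM. Without wild-type replicate 4 the change was smaller and its error was smaller still, -0.58 ± 0.11 (adjusted p = 0.000126). The call was lost with knockout replicate 1, 2, 3 or 4 left out (adjusted p = 0.0513, 0.0788, 0.0825 and 0.0818) and after all libraries were thinned to the same number of counts outside the mitochondrial genome (-1.02, adjusted p = 0.0522). Onecut3, the remaining gene of the family, was too low to test.

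Prox1 (ENSMUSG00000010175) represses bile acid and lipid genes with nuclear receptors in hepatocytes and is the master factor of lymphatic vessels. Its wild-type libraries 1 to 4 had 41.1, 42.1, 38.4 and 21.9 CPM, against 55.0, 64.4, 55.2 and 60.8 CPM in the knockout. Each knockout library was above each wild-type library, and wild-type replicate 4 was the lowest. Prox1 rose by 0.68 ± 0.18 on the log2 scale (95% interval 0.29 to 1.07, edgeR adjusted p = 0.0206), with 58.8 ± 4.57 CPM in the knockout and 35.9 ± 9.41 CPM in the wild type. Without wild-type replicate 4 the rise was 0.55 ± 0.10 (adjusted p = 0.000168), and the call was lost without knockout replicate 2 (0.0688) or knockout replicate 4 (0.0637). Prox1os, an antisense RNA that shares 133 exon bases with Prox1 (1.59% of its exons), rose too, by 0.90 ± 0.18 (adjusted p = 0.0054, 13.6 ± 1.46 against 7.40 ± 1.23 CPM; not called after thinning). The sources used here do not give whether counting used strand, and without strand the reads of the shared bases cannot be told apart. None of the 3 testable lymphatic endothelial markers passed (edgeR log2 fold changes of 0.42 for Flt4, -0.11 for Ccl21a and -0.70 for Reln, with adjusted p = 0.273, 0.892 and 0.147, 0 at an unadjusted p under 0.05, and 0 by DESeq2 or limma-voom). The summed level of that list was 24.76 to 34.52 CPM in the knockout and 24.76 to 61.85 CPM in the wild type. Reln, which is also on the stellate cell list, was at 42.2 CPM in wild-type replicate 4 and at 12.6 to 15.5 CPM in the other wild-type libraries. Pdpn and Mmrn1 were too low to test, and 1 marker passed, upward, without wild-type replicate 4. Lyve1 was counted with the sinusoidal endothelial markers and not on this list, and it rose by 2.11 ± 0.32 (edgeR adjusted p = 0.0012). The part of lymphatic cells in the rise of Prox1 was not tested.

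Gata4 (ENSMUSG00000021944) encodes a zinc finger factor that opens chromatin in the early endoderm. The wild-type libraries 1 to 4 had 12.3, 10.6, 12.0 and 11.3 CPM and the knockout libraries 7.74, 6.65, 7.38 and 8.14 CPM. The groups did not overlap, and wild-type replicate 4 lay inside its group. Gata4 fell by 0.63 ± 0.16 on the log2 scale (95% interval -0.98 to -0.28, edgeR adjusted p = 0.0183), from 11.5 ± 0.754 CPM to 7.48 ± 0.635 CPM, and by 0.62 ± 0.16 without wild-type replicate 4 (adjusted p = 0.00455). The call was lost without wild-type replicate 3 (0.0528), knockout replicate 2 (0.069) or knockout replicate 3 (0.0566), and after thinning to equal depth (-0.92, adjusted p = 0.111). Scaled by library size alone its log2 fold change was -0.07, which is below the 0.54 median of all genes on that scale. Gata4 is also made by sinusoidal endothelial cells, and of 10 markers of these cells 6 rose and 0 fell, with a median log2 fold change of 1.07; Lyve1 (2.11), Oit3 (1.76), Gpr182 (1.72) and Kdr (1.33) were higher. Their summed level was 169.7 to 317.5 CPM in the knockout and 113.8 to 217.1 CPM in the wild type, ranges that overlap. Without wild-type replicate 4, 8 of the 10 rose and 0 fell, with a median log2 fold change of 1.16. That fit called 35.2% of all tested genes. After thinning to equal depth 4 of the markers passed and Kdr did not. Of all tested genes 10.4% were higher and 10.7% lower. On the stellate cell list 0 of 10 markers rose and 2 fell, with a median log2 fold change of -0.59. A called count of 2 of 10 is near the 21.0% of all tested genes, and after thinning 0 passed. Without wild-type replicate 4, 2 stellate markers were higher and 2 lower. The part of cell composition, of these or of other cells, in the fall of Gata4 was not tested.

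Among the forkhead factors, Foxa1 (ENSMUSG00000035451) had groups that did not overlap but did not pass the threshold. Its CPM values were 12.4, 8.80, 10.6 and 6.19 in wild-type replicates 1 to 4 and 12.9, 14.6, 13.8 and 14.3 in the knockout. Wild-type replicate 4, with 11 counts, was the lowest, and wild-type replicate 1 lay close under the knockout. The log2 fold change was 0.48 ± 0.19 (95% interval 0.08 to 0.89, edgeR adjusted p = 0.0853). It passed without wild-type replicate 1 (0.64, adjusted p = 0.0446) or wild-type replicate 4 (0.40 ± 0.15, adjusted p = 0.0479). Its knockout mean was 13.9 ± 0.774 CPM against 9.50 ± 2.65 CPM in the wild type. Foxa1 is the factor with the seed match printed above, and whether that match bears on its level was not tested.

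Foxa2 (ENSMUSG00000037025), which in the fasted liver drives fat oxidation and ketone production, had 22.0, 28.6, 30.8 and 36.6 CPM in the wild type and 29.1, 26.3, 30.5 and 28.1 CPM in the knockout. The knockout values lay inside the wild-type range. Its log2 fold change was -0.02 ± 0.15, and the 95% interval, -0.36 to 0.32, bounds a difference that edgeR did not detect (adjusted p = 0.951). The sign turned when scaled by library size alone (0.59) and without wild-type replicate 4 (0.09).

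Foxa3 (ENSMUSG00000040891), the forkhead factor that prevails in adult hepatocytes, had 32.8, 34.1, 32.9 and 45.6 CPM in the wild type and 39.8, 39.2, 34.9 and 38.6 CPM in the knockout. With wild-type replicate 4, the high one, the groups overlapped, and without it all 4 knockout libraries were above the other 3 wild-type libraries. The log2 fold change was 0.09 ± 0.14 (edgeR adjusted p = 0.665) with that library and 0.21 ± 0.10 (adjusted p = 0.135) without it, neither of which passed.

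Cebpa (ENSMUSG00000034957), the bZIP factor that holds hepatocytes in a differentiated, non-dividing state, had 333, 297, 311 and 179 CPM in the wild type and 223, 265, 262 and 271 CPM in the knockout. Wild-type replicates 1 to 3 were above every knockout library and replicate 4 was below them all. Over all 8 libraries the log2 fold change was -0.14 ± 0.19 (edgeR adjusted p = 0.636), and scaled by library size alone it was 0.33. Without wild-type replicate 4 Cebpa fell by 0.29 ± 0.09 (adjusted p = 0.0161). So 1 library decided whether Cebpa passed. The antisense RNA Gm45091 shares 51 exon bases (1.93%) with Cebpa and did not pass (0.65 ± 0.34 on the log2 scale, edgeR adjusted p = 0.194).

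**Figure D2:**
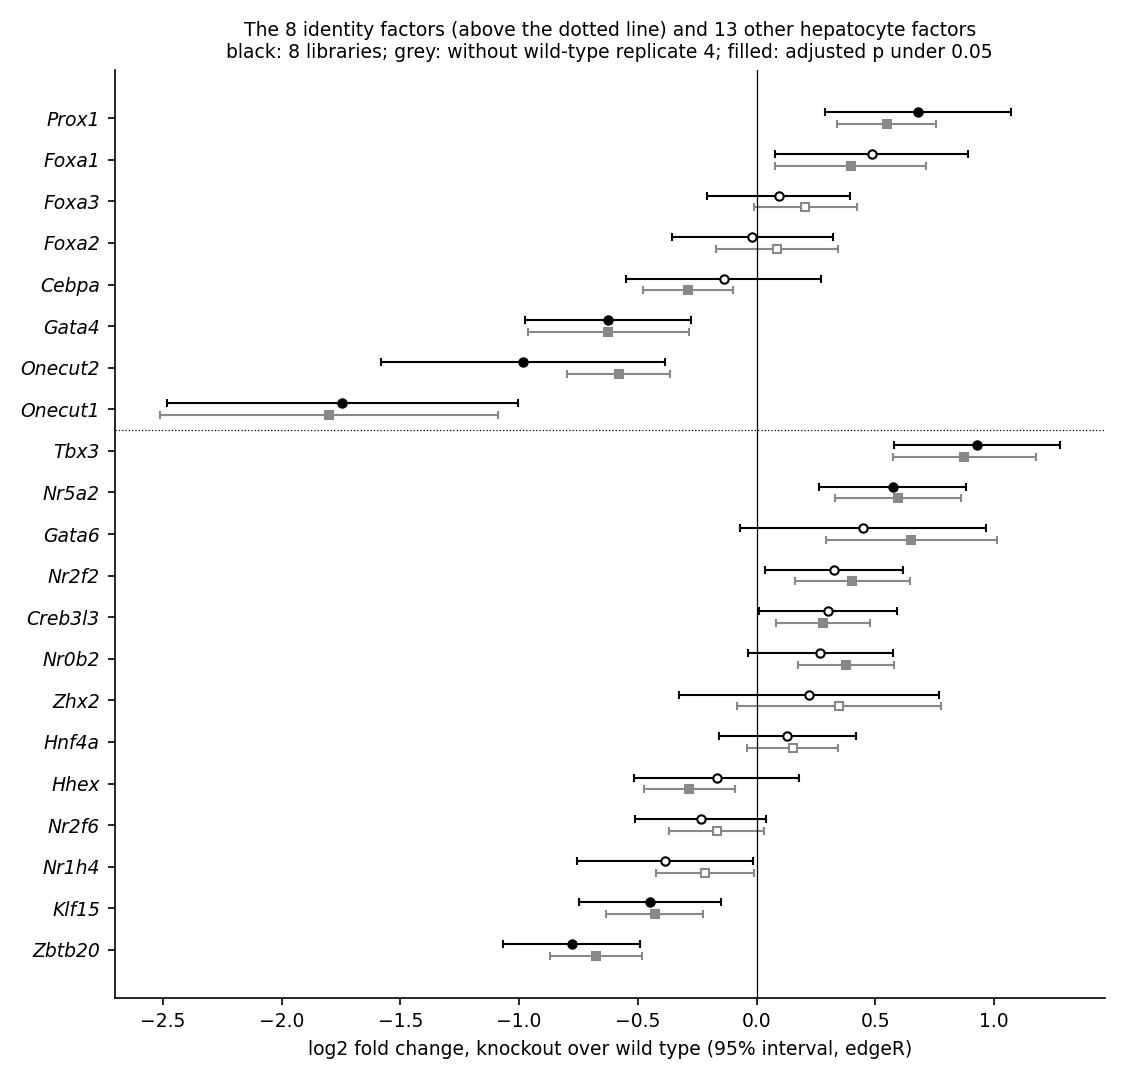
Log2 fold change of knockout over wild type (horizontal axis) with its 95% interval from edgeR for the 8 identity factors and, below the dotted line, most of the 15 other hepatocyte transcription factors, in black for all 8 libraries and in grey without wild-type replicate 4; filled points passed an adjusted p of 0.05. With all libraries, the intervals of Onecut1, Onecut2 and Gata4 lay below 0 and those of Prox1 and Foxa1 above it, Foxa1 failing only after adjustment.

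Per kilobase of exon, Cebpa had the highest level of the 8 and Onecut1 the lowest in both genotypes. In the knockout the order was Cebpa (96.8 ± 8.29 CPM per kb), Foxa3 (18.7 ± 1.08), Foxa2 (12.0 ± 0.732), Prox1 (7.01 ± 0.545), Foxa1 (4.18 ± 0.233), Onecut2 (3.21 ± 0.363), Gata4 (1.92 ± 0.163) and Onecut1 (0.274 ± 0.0714). No neighbours in this order overlapped in their library ranges. In the wild type Cebpa (106 ± 26.1), Foxa3 (17.8 ± 3.02) and Foxa2 (12.4 ± 2.54) led in the same order, with ranges that did not overlap. Below them came Onecut2 (6.48 ± 3.29, range 4.44 to 11.4), Prox1 (4.27 ± 1.12, range 2.61 to 5.01), Gata4 (2.95 ± 0.193), Foxa1 (2.85 ± 0.796) and Onecut1 (0.897 ± 0.221). The wild-type range of Onecut2 overlapped those of Foxa2 and Prox1, and Prox1, Gata4 and Foxa1 overlapped each other. Onecut2 thus stood before Prox1 in the wild-type means and after Foxa1 in the knockout means.

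**Figure D3:**
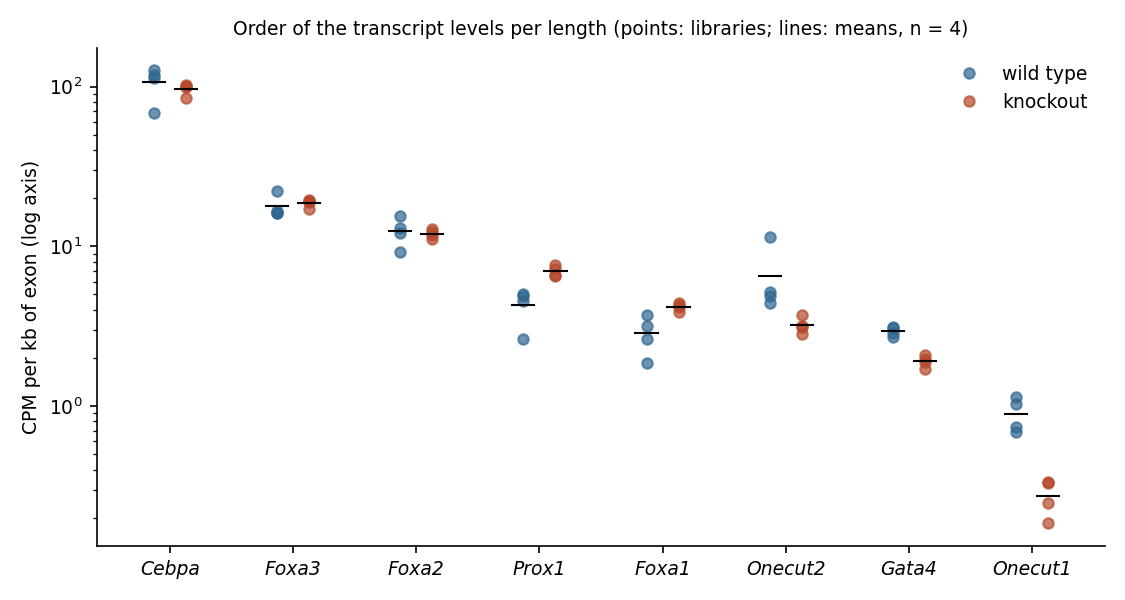
TMM-scaled CPM per kilobase of exon (vertical axis, logarithmic) for the 8 factors in each library; lines are group means (n = 4). Cebpa led in every library and Onecut1 was the lowest in every library, while the knockout points of Onecut2 and Gata4 lay below and those of Prox1 above the wild-type points.

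Ratios of related factors within a library do not depend on scaling, and 5 were compared by a two-sided exact permutation test over 4 against 4 libraries, whose smallest possible p is 0.0286. After adjustment over 5 ratios 1 ratio at that p would stand at 0.143, so no ratio could pass unless at least 3 reached it together, and that 0 passed does not bound the differences. The log2 ratio of Foxa1 to Foxa2 counts was -1.03 ± 0.153 in the knockout and -1.64 ± 0.692 in the wild type (difference 0.61, exact p = 0.143, adjusted over the 5 ratios 0.333). That of Onecut1 to Onecut2 was -5.51 ± 0.330 against -4.70 ± 0.850 (difference -0.81, exact p = 0.114, adjusted 0.333). In both ratios wild-type replicate 4 was the lowest wild-type library. Without it the Onecut1 to Onecut2 difference was -1.22 (exact p = 0.0286), and without wild-type replicate 1 the Foxa1 to Foxa2 difference was 0.88 (exact p = 0.0286), which is also the smallest p that 3 against 4 libraries allow. The Foxa1 to Foxa3 ratio differed by 0.50 (exact p = 0.2, adjusted 0.333; 0.21 without wild-type replicate 4) and that of Foxa2 to Foxa3 by -0.11 (exact p = 0.457, adjusted 0.571). Cebpa to Cebpb, the stress-responsive relative that binds the same sites, had log2 ratios of 0.83 ± 0.272 in the knockout and 0.70 ± 0.578 in the wild type (difference 0.13, exact p = 0.857, also after adjustment), and the difference was -0.15 without wild-type replicate 4.

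**Figure D4:**
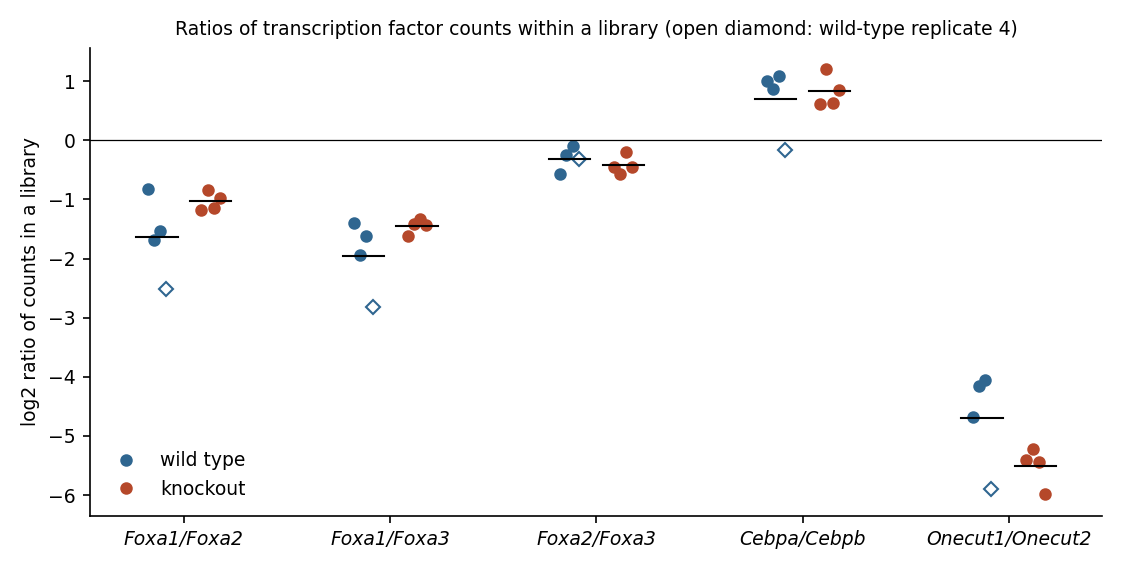
Log2 ratio of the counts of 2 factors in the same library (vertical axis) for the 5 pairs; points are libraries, lines are group means (n = 4), and the open diamond is wild-type replicate 4. The wild-type points spread more widely than the knockout points for Foxa1 to Foxa2 and Onecut1 to Onecut2, where the open diamond is the lowest wild-type point.

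The genes whose log2 CPM followed each changed factor most closely over the 8 libraries are given as a description only, out of 8802 candidates that share depth, scaling and the genotype split. For Onecut1 they were Gnl3 (Pearson r = 0.988) and Zbtb24 (0.981), and for Onecut2 Dexi is given (0.993). For Prox1 they were BC025446 (0.996) and Ipmk (0.994), and for Gata4 they were Ndufaf4 (0.975) and Rpia (0.974). Without wild-type replicate 4 the correlations given were 0.971 to 0.995.

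The other transcription factors of the hepatocyte network gave 2 higher and 2 lower genes of 15 tested, with a median log2 fold change of 0.14 against -0.01 over all genes. The background was 21.0% of all tested genes called, 10.4% higher and 10.7% lower. Tbx3, a T-box factor of pericentral hepatocytes, rose by 0.93 ± 0.16 (edgeR adjusted p = 0.0024), from 9.42 ± 1.65 to 18.5 ± 1.71 CPM, and Zbtb20, the repressor that silences Afp after birth, fell by 0.78 ± 0.13 (0.00213). Nr5a2, the nuclear receptor LRH-1, rose by 0.57 ± 0.14 (0.0158; lost without wild-type replicate 2 or knockout replicate 2), and Klf15, a factor of amino acid catabolism, fell by 0.45 ± 0.14 (0.0381; lost, at 0.0717 to 0.114, when any 1 library but wild-type replicate 1 or 4 was left out). Hnf4a, the nuclear receptor at the centre of the network, did not pass, with a log2 fold change of 0.13 ± 0.13 (0.514). It stood at 440 ± 47.3 CPM in the knockout and 402 ± 15.2 CPM in the wild type. The count of 4 called genes was 2 without wild-type replicate 2 or knockout replicate 2. It was 9, 6 of them higher, without wild-type replicate 4, a fit that called 35.2% of all tested genes.

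Relatives of the factors are read against the 21.0% of all tested genes that were called. Of 5 tested C/EBP relatives only Cebpd, the acute-phase member, passed, rising by 0.87 ± 0.25 (edgeR adjusted p = 0.0312), and it was lost, at 0.0618 to 0.0924, when any 1 library but wild-type replicate 1 or 4 was left out, and after thinning. Cebpb was at 144 ± 22.0 CPM in the knockout and 169 ± 22.5 CPM in the wild type (log2 fold change -0.22 ± 0.16, adjusted p = 0.333). Of 12 tested forkhead relatives 1 rose and 2 fell: Foxo1, which is switched off by insulin, by 0.45 ± 0.12 (0.0224), Foxk2 by -0.64 ± 0.13 (0.00617) and Foxn3 by -0.43 ± 0.14 (0.0454). The call of Foxk2 stood with each library left out. That of Foxo1 was lost without wild-type replicate 2 or 3 or knockout replicate 2, 3 or 4 (0.0521 to 0.0751), and that of Foxn3 without any 1 library but wild-type replicate 4 (0.0717 to 0.119). Without wild-type replicate 4, 3 forkhead relatives were higher and 4 lower, and 1 relative passed without wild-type replicate 2 or 3 or knockout replicate 2, 3 or 4.

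Among 13 tested partners and regulators of these factors 0 rose and 4 fell, with a median log2 fold change of -0.27. Of all tested genes 10.4% were higher and 10.7% lower. Zfpm1 (FOG1), a cofactor that binds GATA proteins, fell by 0.87 ± 0.20 (edgeR adjusted p = 0.0102). Tle2, a Groucho corepressor of the kind FOXA proteins recruit, fell by 0.74 ± 0.17 (0.0125; 0.0542 without knockout replicate 2 and 0.0554 without knockout replicate 4). Esrra, a nuclear receptor that PROX1 binds, fell by 1.05 ± 0.28 (0.024; lost without any 1 of the knockout libraries, 0.0614 to 0.0823). Without wild-type replicate 4 the log2 fold changes were smaller in size and still passed, at -0.645 for Zfpm1, -0.653 for Tle2 and -0.615 for Esrra. Counts ran from 2 without knockout replicate 2 or 4 to 7 without wild-type replicate 4, 1 of them higher.

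Genes that textbooks link to the factors were then read from the same fit, as a description of their levels and not as a readout of factor activity. Their counts are set beside the 21.0% of all tested genes that were called, 10.4% higher and 10.7% lower. Without wild-type replicate 4 the called share was 35.2%. Of 13 tested genes linked to FOXA factors 6 rose and 3 fell, with a median log2 fold change of -0.13. Igfbp1, an insulin-repressed secreted protein with FOXA sites in its promoter, rose by 1.84 ± 0.21 (edgeR adjusted p = 0.000177), from 6.16 ± 1.87 to 23.4 ± 4.27 CPM. Acadm, an enzyme of fatty acid oxidation, rose by 1.19 ± 0.22 (0.0032). G6pc, which releases glucose from the hepatocyte, fell by 2.17 ± 0.14 (2.11e-06), from 348 ± 16.8 to 77.3 ± 8.42 CPM, and it is also on the CEBPA list. The count of 9 was 5 without knockout replicate 2 or 4, 6 without wild-type replicate 1, 2 or 3 or knockout replicate 3, and 11 without wild-type replicate 4, 6 higher and 5 lower. The transcript of Foxa2, the factor tied to fat oxidation, showed no detected difference (edgeR adjusted p = 0.951). The interval of its log2 fold change, -0.36 to 0.32, allows a change in either direction. The activity of the FOXA2 protein was not measured, and its part in these changes was not tested.

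Of 10 genes linked to CEBPA 0 rose and 5 fell, while 10.7% of all tested genes were lower. The median log2 fold change of the 10 was -0.55. Asl of the urea cycle fell by 0.72 ± 0.12 (edgeR adjusted p = 0.00244), and Tat, which breaks down tyrosine, fell by 0.59 ± 0.14 (0.0116). Alb fell by 0.52 ± 0.14 (0.0233), a call that was lost with any library but wild-type replicate 4 left out (0.0656 to 0.0864). G6pc, Tat, Alb and Pck1 stand on the FOXA list as well, so the lists are not separate. With wild-type replicate 4 left out 9 of the 10 fell, beside 2407 of all 13777 genes in that fit. With any other library left out 3 passed.

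Of 7 genes linked to ONECUT factors 0 rose and 2 fell, Cyp7a1 among them, with a median log2 fold change of -0.52, and 1 of the 7 is Foxa2 itself. Pfkfb1, which makes and breaks down a sugar phosphate that steers glycolysis, did not pass (log2 fold change -0.52, edgeR adjusted p = 0.169). The count was 1 without wild-type replicate 2 or 3 or knockout replicate 2, 3 or 4, and 3 without wild-type replicate 4.

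Of 5 tested genes linked to PROX1 or GATA4 0 rose and 2 fell. Cyp7a1, the rate-limiting enzyme of bile acid synthesis, on which PROX1 acts as a corepressor, fell by 0.98 ± 0.26 (edgeR adjusted p = 0.0205; lost, at 0.0548 to 0.0777, without any 1 library but wild-type replicate 4 or knockout replicate 1). Abcg5, a sterol exporter whose shared promoter with Abcg8 binds GATA4, fell by 1.10 ± 0.16 (0.000793), and Abcg8 did not pass (log2 fold change 0.06 ± 0.19, adjusted p = 0.862; named after its values were seen). Nr0b2 (log2 fold change 0.27, adjusted p = 0.192) and Hamp (-0.31, 0.246) did not pass over all 8 libraries, but without wild-type replicate 4 Nr0b2 rose (0.38, 0.00446) and Hamp fell (-0.44, 0.000676). Epo was at 0 in every library. The count was 1 with wild-type replicate 1, 2 or 3 or knockout replicate 2, 3 or 4 left out and 4 with wild-type replicate 4 left out, 1 higher and 3 lower.

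**Figure D5:**
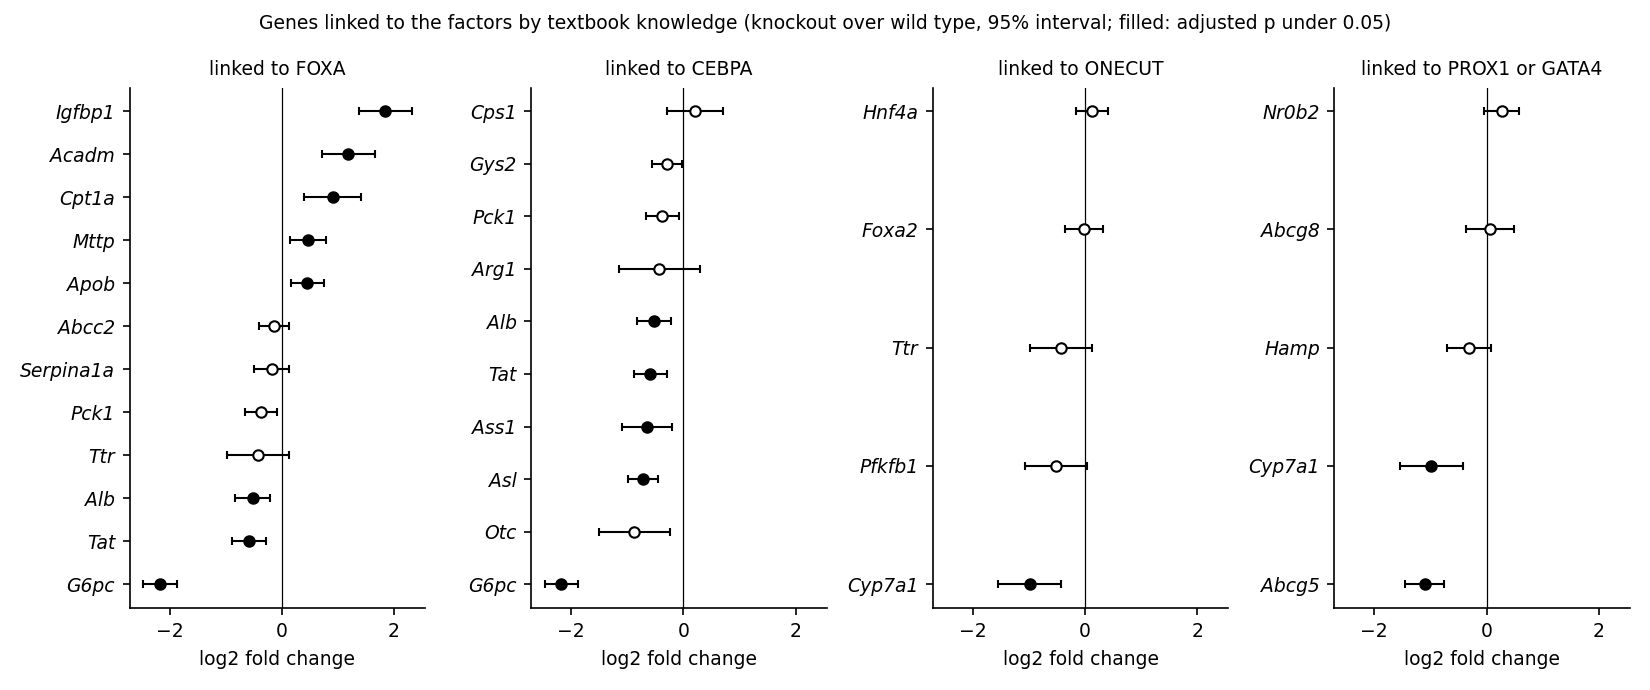
Log2 fold change of knockout over wild type (horizontal axis) with its 95% interval from edgeR for most of the tested genes linked to FOXA, CEBPA, ONECUT and PROX1 or GATA4; filled points passed an adjusted p of 0.05. The FOXA group held points on both sides of 0, from G6pc at -2.17 to Igfbp1 at 1.84, while the called genes of the other groups all lay below 0.

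Markers checked the tissue and its makeup, and their counts are read against the same 21.0% of all tested genes that were called. The 16 hepatocyte markers were at a summed 75650 to 83630 CPM in the knockout and 66900 to 89250 CPM in the wild type, ranges that overlap, with 7 higher and 1 lower. Fgg (2.04), Fgb (1.48), Fga (2.12) and Rbp4 (1.13) were among the higher ones, and Alb was the lower one. The 10 Kupffer cell markers gave 6 higher and 0 lower, with C1qc at 1.66 and Marco at 1.47, and a summed level of 166.5 to 203.1 CPM against 64.02 to 216.5 CPM. The number called was 3 without knockout replicate 2 or 4, 4 without wild-type replicate 2 or knockout replicate 1, 9 without wild-type replicate 4 and 1 after thinning. Stellate cell markers gave 0 higher and 2 lower of 10, Col1a2 (-1.30) and Col1a1 (-1.47, lost without wild-type replicate 3 or knockout replicate 2), with summed levels of 140.3 to 160.4 CPM and 123.1 to 255.8 CPM. With wild-type replicate 4 left out, 2 were higher and 2 lower, and after thinning 0 passed. Of 8 cholangiocyte markers, cells in which ONECUT1 also acts, 3 could be tested and 1 passed, Spp1, which rose by 0.81 ± 0.20 (edgeR adjusted p = 0.0149, lost without knockout replicate 2, 3 or 4 and after thinning). Without wild-type replicate 1, 2 or 4, 2 of these markers passed. Their summed level was 41.65 to 46.31 CPM in the knockout and 30.19 to 38.76 CPM in the wild type, above it in every library, while Onecut1 and Onecut2 fell; the defining markers Krt19, Krt7 and Epcam were too low to test and Cftr averaged 0 in the knockout. None of 5 fetal liver genes could be tested, and Igf2 and Dlk1 had 0 counts in all libraries. The part of these cell types in the changes of the factors was not tested.

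The promoters are shown for 2 factors that hold letters bound by other factors of the set. From RefSeq's table on GRCm38.p6, 9 promoters of 6 of the 8 genes were read, each with 250 bases before and 50 after a transcription start. Gata4 and Onecut2 are not among the 6. Searched on both strands were TGTTTAC for FOXA, ATTGATT for ONECUT, TTGCNNAA for C/EBP, AGATAA for GATA and CAAAGTCCA for HNF4. The Foxa1 promoter holds the FOXA letters on its opposite strand, starting 141 bases before the start and found in 3.65% of 32851 promoters. It lies at chr12:57546062-57546361 on the minus strand, with the match in capitals.
Foxa1 promoter: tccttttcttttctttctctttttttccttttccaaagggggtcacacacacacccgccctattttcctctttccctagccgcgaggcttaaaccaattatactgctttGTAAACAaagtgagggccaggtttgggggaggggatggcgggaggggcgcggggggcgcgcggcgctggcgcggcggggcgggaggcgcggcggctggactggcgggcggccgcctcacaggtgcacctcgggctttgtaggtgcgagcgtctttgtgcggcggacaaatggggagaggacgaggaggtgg
The most upstream of 3 Foxa2 promoters, at chr2:148046920-148047219 on the minus strand, holds the ONECUT letters 213 bases before the start, found in 2.86% of promoters.
Foxa2 promoter: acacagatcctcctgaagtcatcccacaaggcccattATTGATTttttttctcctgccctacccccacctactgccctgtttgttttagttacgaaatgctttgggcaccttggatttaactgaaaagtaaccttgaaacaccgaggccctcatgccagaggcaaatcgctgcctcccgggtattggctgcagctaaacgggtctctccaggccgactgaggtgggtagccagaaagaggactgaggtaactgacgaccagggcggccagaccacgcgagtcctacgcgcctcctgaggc
Another Foxa2 promoter holds the GATA letters 183 bases before its start (11.2% of promoters). The C/EBP letters (10.8% of promoters) and HNF4 letters (0.475%) were found in none of the 9. A match in these windows is a description of letters and not of binding, and whether ONECUT factors act on Foxa2 was not tested.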

How the data were processed

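Liver RNA of 4 miR-93 knockout and 4 wild-type libraries was sequenced, and groups came from the genotype label. The authors deposited raw counts per Ensembl gene ID without normalization. The submitters' processing notes name cutadapt 4.2, STAR 2.7.10a and the mm39 build, while the counting tool and its strand setting are not given in the sources used here. GENCODE M21 and the RefSeq tables, both on GRCm38, served for symbols (52125 of 56748 IDs), exon lengths and overlaps, 3′ UTRs, microRNAs and promoters, and no coordinates were converted.

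Counts were tested in R 4.3.3 with edgeR 4.0.16 (robust quasi-likelihood fits, TMM factors, filterByExpr on genotype, no covariate), two-sided with Benjamini-Hochberg adjustment over 13204 of 25937 detected genes and a threshold of 0.05. CPM are scaled by TMM. Ratios used 0.5 added to each count. In wild-type replicate 4, 3 counts, the limit that a count of 0 allows, are 1.69 CPM, and in the others 0.219 to 0.455 CPM. Such limits cover counting error only. Total counts ran from 5085860 to 10966019.

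The members, lists and tests were chosen with earlier results of these data known. Named were the 8 factors, Hnf4a, Cebpb, Mir93, Sirt1, overlapping genes, the 2 closest followers of each called factor, and up to 4 genes with the smallest p per list; a few of these genes are left unreported, though the counts of their lists include them. Alternatives were other scalings, filters, DESeq2 1.42.0, a replicate block, limma 3.58.1 voom both plain and with quality weights, thinning to 1131446 counts outside the mitochondrial genome, a prior of 2 for ratios, and each library left out in turn. Fits were tested on simulated data. Sequences were searched with Python 3.11.15 and figures drawn with matplotlib 3.10.9.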

Additional observations from a re-analysis of the deposited data

Results flagged for a closer look

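Wild-type replicate 4 stood apart for 2 of the factors in the wild-type group. Foxa3 was at 45.6 CPM there and at 32.8 to 34.1 CPM in the other 3 wild-type libraries, a gap of 0.902 of the group's range. Onecut2 was at 185 CPM there and at 72.1 to 84.0 CPM in the others, a gap of 0.894 of the range. Both gaps are past Dixon's 95% critical value for 4 samples. In all 26 groups of 4 were examined, and chance passes that value in about 1 in 20. Leaving this library out moved the log2 fold change of Foxa3 from 0.09 to 0.21 and that of Onecut2 from -0.98 to -0.58. The high mitochondrial share and low depth of the library are given with the results, and their part in these values was not tested.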

How the results depend on the processing

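Over 19 alternatives, the direction of Onecut1, Onecut2, Prox1, Gata4, Foxa1 and Foxa3 did not turn in any that could be computed. DESeq2 size factors and upper quartile factors each left the same 4 of 8 factor calls in number, with 1 higher and 3 lower. Scaling by library size only shifted the median of all genes to 0.54 and left 685 genes, 22 listed genes and 0 factors past the threshold, with Onecut1 at -1.22 (adjusted p = 0.142), Onecut2 at -0.21 (0.649), Prox1 at 1.17 (0.137) and Gata4 at -0.073 (0.904); it turned the sign of Foxa2 (0.59), Cebpa (0.33), Klf15 (0.13), Cebpe (0.043), Ddit3 (0.31), Foxn3 (0.17), Alb (0.012), Pfkfb1 (0.23), Hamp (0.17), Reln (0.041), Ccl21a (0.37), Cebpb (0.39) and Sirt1 (0.30, against -0.34 ± 0.21 as fitted, edgeR adjusted p = 0.268). Limma-voom with quality weights called 4950 genes and 80 listed genes, among them Foxa1 at 0.41 (0.0355), with Foxa2 at 0.037; limma-voom without weights gave Foxa2 at 0.030 and Ccl21a at 0.042. With no filter Foxa2 was 0.043 and Gata4 -0.57 (0.095). Thinned to equal depth, 1582 genes and 1 factor passed, with Onecut2 at -1.02 (0.0522), Gata4 at -0.92 (0.111), Foxa2 at 0.056 and Flt4 at -0.039. Onecut1 was too low to test there and under the stricter filter.

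With 1 library left out in turn, 1489 to 4853 genes, 31 to 83 listed genes (52 with all) and 1 to 6 factors passed. The log2 fold changes ran from 0.40 to 0.64 for Foxa1, -0.14 to 0.086 for Foxa2, -0.29 to -0.039 for Cebpa, -1.12 to -0.58 for Onecut2, 0.55 to 0.76 for Prox1, -0.67 to -0.57 for Gata4 and -0.31 to 0.10 for Ccl21a. The log2 ratio differences ran from 0.32 to 0.88 for Foxa1 to Foxa2, -0.15 to 0.26 for Cebpa to Cebpb and -1.22 to -0.60 for Onecut1 to Onecut2. The causes were not tested. Over the named genes that are not among the 8 factors, 836 combinations of gene and alternative kept direction and side of the threshold, 97 lost the call, 10 gained it and 16 turned sign. Depth limits precision in Onecut1, with 5 to 34 counts in a library, Gata4, with 20 to 107, and Foxa1, with 11 to 189.

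Replicate numbers did not pair the libraries: same-numbered deviations correlated at -0.256, -0.0394, -0.0713 and -0.126, and 0 of 8 libraries correlated best with its own number. A fit with the replicate block called 1267 genes, 32 listed genes and 1 factor, with Onecut2 at -0.89 (adjusted p = 0.0617), Prox1 at 0.72 (0.064), Gata4 at -0.63 (0.0911) and Ccl21a at 0.073.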
